A study of Mus musculus with 6 samples.

Results

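The liver stores glucose as glycogen after a meal and returns glucose to the blood between meals. The 9 genes described here encode the enzymes and transporters at the centre of both tasks in hepatocytes: Ugp2, Gys2 and Gbe1 for building glycogen, Pygl for breaking it down, G6pc, Slc37a4 and Slc2a2 for releasing glucose, Pck1 for making it anew, and Gckr for holding back glucose uptake. They were chosen by name, with earlier results of these data known, as the array probes that carry these gene names. Of the 9 genes, 8 were measured, with 11 probes among 41174 that are not controls, and Pck1 is not analysed here.

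The livers came from 6 male BALB/c mice in 2 groups of 3 independent animals. The MC-LR mice drank water with microcystin-LR, a cyanobacterial toxin that inhibits serine/threonine protein phosphatases, at 100 µg/L for 12 months from 6 weeks of age. The control mice drank sterile water over the same time. All had free access to a standard diet and were kept 5 to a cage, and the labels give neither the time of day nor the feeding state at collection nor which animals shared a cage. Whole liver was measured, so fewer cells of a type and less RNA per cell cannot be told apart.

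Each liver was read on its own single-colour Agilent array, and 64.9% to 73.7% of the spots on each array lay well above background, with 0 saturated. Values are the deposited normalized signals on the log2 scale, on which 1 unit is a doubling, and precision is limited by having 3 arrays a group. The 3 MC-LR arrays shared slide 2 with control 3, while controls 1 and 2 had slide 1 to themselves, so the members' differences are also given within slide 2, where there is 1 control. Of the hepatocyte markers Alb, Apoa1, Apob, Ttr, Tf, Hnf4a, Cps1, Ass1, Cyp2e1 and Serpina1c, 10 of 10 were well above background on all arrays. Of 4 markers each of other tissues, those well above background on all 6 arrays were 1 of kidney (Aqp2), 2 of pancreas (Cela1 and Ins2), 1 of adipocytes (Cfd) and 0 of skeletal muscle, and those on no array were 2 of kidney (Slc34a1 and Kap) and 1 of muscle (Ckm). Of the hepatocyte markers, 7 had a log2 difference (MC-LR minus control) above 0 and 3 below. Cyp2e1 (0.58, and 0.72 within slide 2) was at an unadjusted p under 0.05 (limma). The log2 of the summed signal of the hepatocyte markers spanned 19.77 to 19.81 in MC-LR livers and 19.69 to 19.82 in control livers. That of 6 endothelial markers spanned 14.07 to 14.48 in MC-LR livers and 14.25 to 14.91 in control livers. The log2 differences of 6 of 6 were below 0, with Pecam1 (-0.54) and Cdh5 (-0.44) at an unadjusted p under 0.05. Over all probes tested, 7.89% were higher and 5.03% lower at that threshold. Within slide 2, Pecam1 (-0.58), Cdh5 (-0.54) and Lyve1 (-1.33) were below 0 and Stab2 (0.02), Clec4g (0.03) and Kdr (0.13) above it, and without control 3 Lyve1 was above 0 (0.14). The 6 markers of Kupffer cells were below 0 over all arrays (median -0.23, and -0.60 within slide 2), but without control 3 the median was -0.04 and Cd68 (0.17), Marco (0.71) and Cd5l (0.05) lay above 0. They had summed signals of 14.75 to 15.46 in MC-LR livers and 15.21 to 15.91 in control livers. Of 6 stellate cell markers, 1 was above 0 and 5 below. Lrat (0.95, and 0.20 within slide 2), Colec10 (-0.46) and Acta2 (-0.34) were at an unadjusted p under 0.05. Of 5 cholangiocyte markers, 2 were above 0 and 3 below, with Sox9 (-0.73) at that threshold. The 2 tested blood markers, Ppbp (-1.055) and Pf4 (-0.50), were both lower at it. Lymphocyte and neutrophil markers had 2 above 0 and 3 below, with 0 at it. The part of these other cells in the results below was not tested.

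Among the 8 measured genes, the glycogen synthase Gys2 (2.35-fold), the glucose transporter Slc2a2 (1.96-fold) and the glucose 6-phosphate transporter Slc37a4 (1.63-fold) had the higher signals in MC-LR livers. The last enzyme of glucose release, G6pc, had the lower signal there, at 0.466-fold. The branching enzyme Gbe1 and the UDP-glucose enzyme Ugp2 were also on the higher side, the inhibitor Gckr was on the lower side, and the phosphorylase Pygl differed by -0.07. No member passed the test: with limma and Benjamini-Hochberg adjustment over all 28507 probes tested, 0 of the 11 member probes had an adjusted p under 0.05, with values from 0.163 to 0.949, against 3 probes (0.0105%) in the whole table. At an unadjusted p under 0.05 there were 6 member probes on the higher side (7.89% of all probes tested) and 2 on the lower side (5.03%), 8 of 11 in all (12.9%). Nor did the 3 arrays of each group overlap for the same numbers of member probes, 6 higher (11.7% of all probes) and 2 lower (8.54%), which is 8 of 11 against 20.3% of all probes in either direction. With 3 arrays against 3, an exact permutation test of 1 probe cannot give a p below 0.1. The median log2 difference was 0.41 over the 8 genes (1 probe each) and 0.00235 over all probes, and the median absolute difference was 0.59 for the genes and 0.17 for all probes. The genes were chosen with earlier results of these data known, so these shares and medians are a description and no test of the set.

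**Figure D1:**
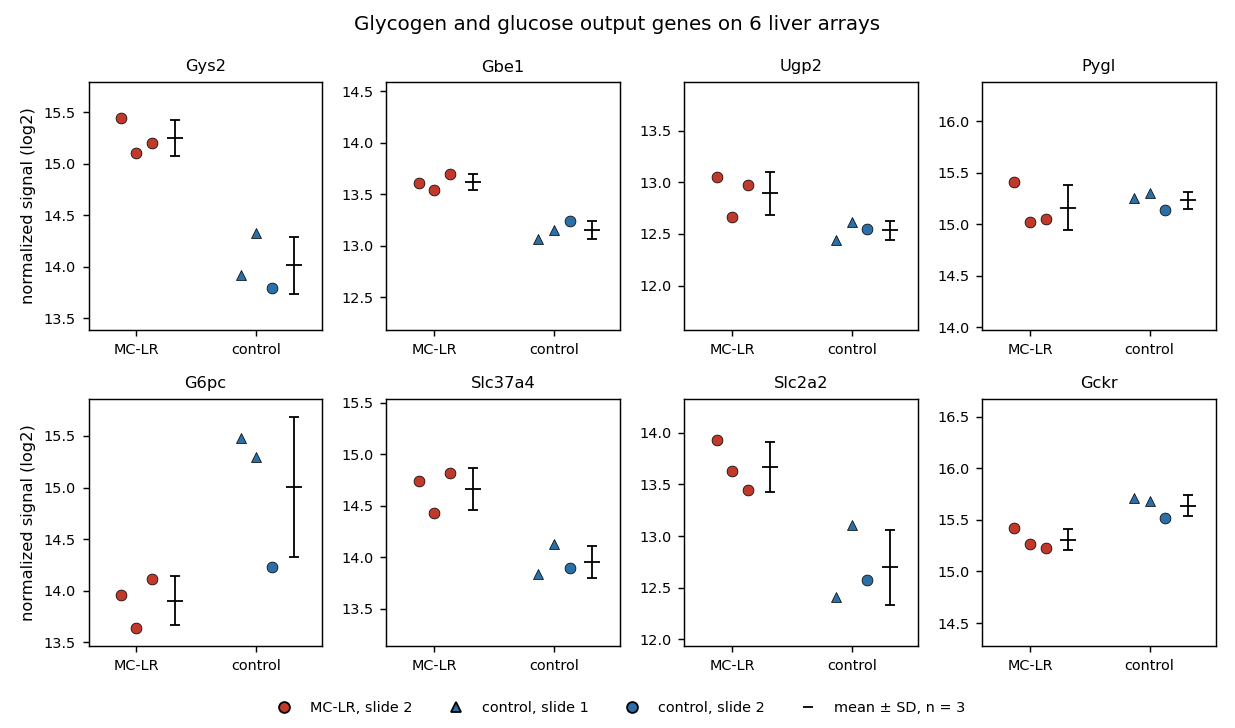
Normalized signal (log2, vertical axis) of the 8 measured genes on each of the 6 liver arrays, 1 panel a gene, each with the probe of highest mean signal; circles are arrays of slide 2, triangles arrays of slide 1, and bars give the mean ± SD (n = 3 per group). The MC-LR arrays lie above all controls for Gys2, Gbe1, Ugp2, Slc37a4 and Slc2a2 and below all controls for G6pc and Gckr; for G6pc, control 3 (14.23) lies near the MC-LR arrays (13.64 to 14.11).

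Glycogen is built from UDP-glucose, which Ugp2 (UDP-glucose pyrophosphorylase) makes from glucose 1-phosphate. Glycogen synthase, encoded by Gys2 in liver, adds the glucose units to a growing chain, and the branching enzyme Gbe1 moves stretches of chain to form branches. Synthase is active when dephosphorylated by protein phosphatase 1, one of the enzymes that MC-LR inhibits, but the arrays measure its RNA and not its activity.

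Gys2 had 15.44, 15.10 and 15.20 in MC-LR livers 1 to 3, against 13.92, 14.33 and 13.80 in control livers 1 to 3 (log2 signal; probe at mm9 chr6:142371206-142371265, minus strand). The groups were 0.77 apart at their nearest arrays, wider than the spread within either, which was 0.34 among MC-LR livers and 0.53 among controls. The log2 difference was 1.23 ± 0.17 (SE; 95% interval 0.80 to 1.66; adjusted p = 0.163, limma), and 1.15% of all probes tested had a larger one in either direction. It was 1.45 within slide 2 and 1.12 without control 3, so it was as large within the slide that holds both groups. Before normalization between arrays, the spot had an intensity of 47385, 38302 and 40174 on the MC-LR arrays, against 13514, 16929 and 16080 on the control arrays. These signals, not adjusted for the overall brightness of each array, also separated the groups. The ratio between the geometric means was 2.71, against 2.35 after normalization.

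Gbe1 had 13.61, 13.54 and 13.70 in MC-LR livers, against 13.07, 13.15 and 13.24 in control livers (probe at mm9 chr16:70569840-70569899, plus strand). The difference of 0.47 ± 0.10 (SE; 95% interval 0.22 to 0.71; adjusted p = 0.240, limma) was smaller than that of Gys2, with arrays that lay close together within each group, and it was 0.38 within slide 2.

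Ugp2 was measured with 2 probes, of which the brighter crosses an exon junction: its 60 bases span 5627 bases of the genome at mm9 chr11:21223265-21228891, minus strand. It is shown because it reads spliced Ugp2 RNA.
Ugp2 probe: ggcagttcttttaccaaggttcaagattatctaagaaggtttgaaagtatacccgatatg

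This Ugp2 probe had 13.05, 12.66 and 12.97 in MC-LR livers, against 12.44, 12.62 and 12.55 in control livers, a difference of 0.36 ± 0.13 (SE; adjusted p = 0.358, limma). The nearest arrays of the groups were only 0.04 apart. The other probe had 12.45, 11.98 and 12.29 in MC-LR livers, against 11.74, 12.02 and 11.92 in control livers, and the groups overlapped (0.35 ± 0.16, SE; adjusted p = 0.416, limma). Both probes gave a difference of the same size, and within slide 2 they gave 0.35 and 0.32.

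Pygl encodes liver glycogen phosphorylase, which releases glucose 1-phosphate from glycogen and is switched on by phosphorylation. It had 15.41, 15.02 and 15.05 in MC-LR livers, against 15.26, 15.30 and 15.14 in control livers. The groups overlapped, and the difference was -0.07 ± 0.14 (SE; 95% interval -0.40 to 0.26; adjusted p = 0.855, limma), an interval that leaves out changes of the size seen for Gys2. A dimmer Pygl probe, designed on a separate cDNA, spread over 6.67 to 7.89 in MC-LR livers and 6.90 to 7.69 in control livers and was less informative (95% interval -0.95 to 0.80). Whether the synthase and the phosphorylase differed from each other was not tested.

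Glucose 6-phosphate from glycogen or from new synthesis is turned into free glucose inside the endoplasmic reticulum. Slc37a4 encodes the transporter that carries it in, G6pc the catalytic subunit of the glucose-6-phosphatase that cleaves it, and Slc2a2 the glucose transporter GLUT2 of the hepatocyte surface, which lets glucose pass in both directions. The 3 genes of this chain did not lie on the same side.

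G6pc had 13.96, 13.64 and 14.11 in MC-LR livers, against 15.48, 15.30 and 14.23 in control livers (probe at mm9 chr11:101238947-101239006, plus strand). Controls 1 and 2 were high, and control 3 lay 0.13 above the highest MC-LR liver. The difference was -1.10 ± 0.34 (SE; 95% interval -1.93 to -0.27; adjusted p = 0.304, limma), and 1.67% of all probes tested had a larger one in either direction. It depended on control 3: the difference was -0.33 within slide 2 and -1.49 without control 3 (adjusted p = 0.0576, limma), where slide and group coincide and cannot be told apart. Relative to the average of the other controls, control 3 stood at -1.15, a gap wider than the range of the MC-LR livers (0.47). The spot intensity was 16580, 13954 and 19138 on the MC-LR arrays, against 39521, 33387 and 21209 on the control arrays.

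Slc37a4 had 14.74, 14.43 and 14.82 in MC-LR livers, against 13.84, 14.13 and 13.90 in control livers (probe at mm9 chr9:44210987-44211045, plus strand). The groups were 0.30 apart, about the spread within each, and the difference was 0.71 ± 0.15 (SE; 95% interval 0.35 to 1.06; adjusted p = 0.232, limma). It was 0.77 within slide 2 and 0.68 without control 3, close to the value over all arrays.

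G6pc and Slc37a4 act as 1 system and had opposite signs here, so their promoters are shown for context, from RefSeq on GRCm38.p6, 250 bases before to 50 after the start site; of the 3 Slc37a4 starts in the table, the one shown holds a TATA motif. Capitals mark TATAAA, at 29 bases before the start of G6pc and 32 before that of Slc37a4.
G6pc promoter, chr11:101367466-101367765, plus strand: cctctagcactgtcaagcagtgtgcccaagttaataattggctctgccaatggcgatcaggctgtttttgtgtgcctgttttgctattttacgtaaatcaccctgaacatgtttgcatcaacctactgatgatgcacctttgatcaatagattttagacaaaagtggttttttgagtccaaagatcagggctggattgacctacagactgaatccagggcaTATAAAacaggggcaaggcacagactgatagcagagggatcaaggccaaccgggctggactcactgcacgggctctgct
Slc37a4 promoter, chr9:44398104-44398403, plus strand: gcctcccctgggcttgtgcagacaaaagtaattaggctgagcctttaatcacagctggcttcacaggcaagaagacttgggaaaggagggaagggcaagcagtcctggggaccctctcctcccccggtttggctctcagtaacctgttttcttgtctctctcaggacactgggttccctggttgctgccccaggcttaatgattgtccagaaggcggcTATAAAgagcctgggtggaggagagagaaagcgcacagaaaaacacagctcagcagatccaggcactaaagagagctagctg

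The windows of all members but Gys2, which has no entry, were searched on both strands for TGACGTCA and TTACGTCA (forms of the cAMP response element), CACGTG (the E-box read by the clock activators), TGTTTAC (forkhead), TTATGTAA (the D-box) and TATAAA. Of the 32851 promoters in the table, 13.6% held TATAAA, TGACGTCA was held by 1.79%, TTACGTCA by 0.499%, CACGTG by 7.15%, TGTTTAC by 3.65% and TTATGTAA by 0.938%. Beyond the 2 TATAAA matches printed above, the only match was TTACGTCA in the promoter of Pck1, 93 bases before its start, the cAMP response element for which that gene is known. The windows of Pygl, Gbe1, Ugp2, Gckr and Slc2a2 held none of these letters. Only these exact letters were sought, so variant forms of the elements were not counted in any window, that of G6pc included.

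Slc2a2 was measured with 2 probes. The dimmer one crosses an exon junction, with 60 bases that span 709 bases at mm9 chr3:28625253-28625961, plus strand, and is shown because it reads spliced GLUT2 RNA.
Slc2a2 probe: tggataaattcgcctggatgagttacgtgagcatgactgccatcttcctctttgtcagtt

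This Slc2a2 probe had 11.08, 10.85 and 10.7 in MC-LR livers, against 9.57, 10.15 and 9.71 in control livers. The groups were 0.54 apart, and the difference was 1.06 ± 0.19 (SE; 95% interval 0.61 to 1.52; adjusted p = 0.210, limma). The brighter probe, at mm9 chr3:28627016-28627075, had 13.93, 13.63 and 13.45 in MC-LR livers, against 12.41, 13.11 and 12.57 in control livers, a difference of 0.97 ± 0.22 (SE; adjusted p = 0.245, limma). Both probes of the gene separated the groups by about the same amount, and within slide 2 they gave 1.17 and 1.10.

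Gckr encodes a regulatory protein of the hepatocyte nucleus that restrains the phosphorylation of incoming glucose when glucose is low. It had 15.42, 15.27 and 15.23 in MC-LR livers, against 15.71, 15.68 and 15.52 in control livers (probe at mm9 chr5:31629583-31629642, plus strand). The groups did not overlap, by 0.10, and the difference of -0.33 ± 0.11 (SE; 95% interval -0.60 to -0.07; adjusted p = 0.316, limma) was -0.22 within slide 2. Before normalization its intensities overlapped, with 40949 to 46548 on the MC-LR arrays and 43066 to 52022 on the control arrays.

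**Figure D2:**
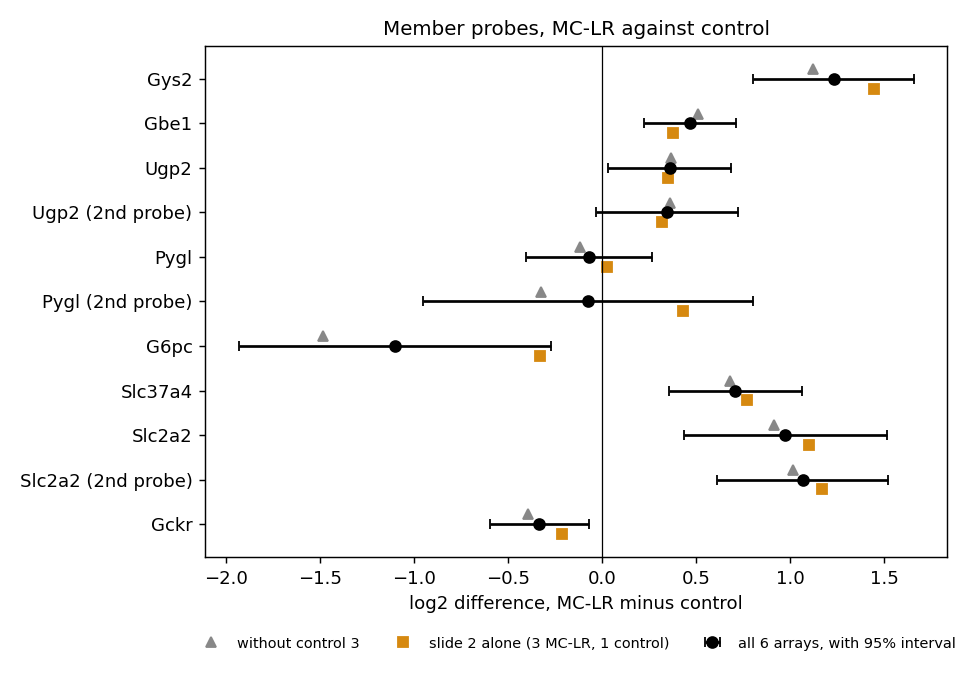
Log2 difference (horizontal axis, MC-LR minus control) of the 11 member probes, with the 95% interval of the fit over all 6 arrays (black), without control 3 (grey triangles) and within slide 2, with 3 MC-LR arrays and 1 control (orange squares). The value of Gys2 was 1.12 without control 3 and 1.45 within slide 2, while that of G6pc was -1.49 without control 3 and -0.33 within slide 2.

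The members therefore differed in where control 3 stood. Control 3 was lower than the mean of controls 1 and 2 for Gys2 (by -0.33), Slc2a2 (by -0.19) and Slc37a4 (by -0.09). This was away from the MC-LR livers. For Gys2, control 3 (13.8) lay below controls 1 (13.92) and 2 (14.33). For Slc2a2 and Slc37a4, control 3 lay between controls 1 and 2. Control 3 was shifted toward the MC-LR livers for G6pc (by -1.15) and Gckr (by -0.18). For G6pc it had 14.23, against 15.48 and 15.3 in controls 1 and 2. For Gckr it had 15.52, against 15.71 and 15.68 in controls 1 and 2. For Gbe1 control 3 (13.24) was shifted toward the MC-LR livers by 0.13, with controls 1 and 2 at 13.07 and 13.15. The 3 genes with profiles most like Gys2 over the 6 arrays, by the root mean square difference of centred log2 values, were Rnf208 (0.07), Flnc (0.07) and Lrp4 (0.09). Those most like G6pc were St3gal1, a sialyltransferase (0.14), Slc11a2, a divalent metal transporter (0.15), and Insig2, which retains sterol regulatory proteins in the endoplasmic reticulum (0.15). Insig2 had 11.43, 11.43 and 11.92 in MC-LR livers, against 13.19, 12.87 and 12.15 in control livers. It was picked for its likeness to G6pc on these arrays, so its low control 3 follows from that choice.

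Of 24 further glycogen genes, 21 passed the filter on dim signals, 10 above 0 and 11 below, with a median log2 difference of -0.00310 and 0 at an adjusted p under 0.05. At an unadjusted p under 0.05 there were 3 on the higher side (7.89% of all probes tested) and 0 on the lower (5.03%). Among them were Ppp1r3g, a subunit that brings protein phosphatase 1 to glycogen after feeding, and Gsk3a, a kinase that inhibits glycogen synthase. Ppp1r3g had 8.94, 8.69 and 7.66 in MC-LR livers, against 6.52, 7.10 and 5.18 in control livers, a difference of 2.17 ± 0.56 (SE; adjusted p = 0.264, limma). Gsk3a differed by 0.47 ± 0.11 (SE). The groups did not overlap for either gene, and within slide 2 Ppp1r3g gave 3.26 and Gsk3a 0.39. Under normexp background correction Ppp1r3g gave 1.37 and Gsk3a 0.27. Ppp1r3c, another such targeting subunit, had 10.17, 10.28 and 9.60 in MC-LR livers, against 12.52, 11.56 and 9.47 in control livers, with control 3 below all 3 MC-LR livers. Its difference of -1.17 ± 0.75 (SE; adjusted p = 0.549, limma) turned to 0.55 within slide 2. The main hepatic subunit Ppp1r3b had 8.73, 8.90 and 11.03 in MC-LR livers, against 9.53, 9.65 and 9.31 in control livers, with MC-LR 3 high.

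**Figure D3:**
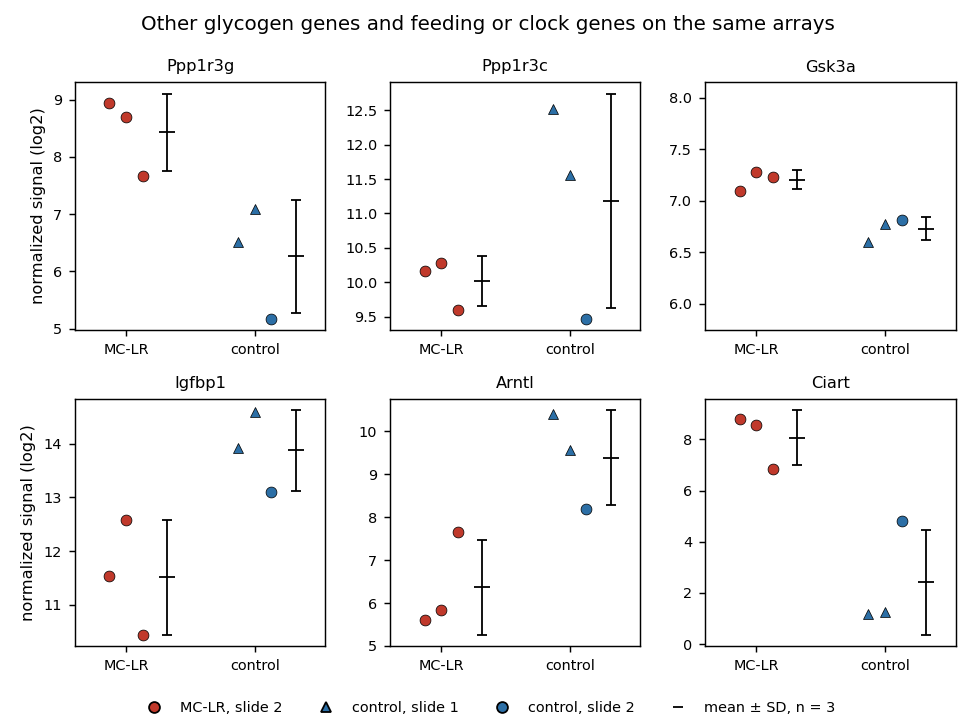
Normalized signal (log2, vertical axis) on each of the 6 arrays for 3 other glycogen genes (Ppp1r3g, Ppp1r3c, Gsk3a), Igfbp1 and the clock genes Arntl and Ciart, drawn as for the member genes (circles slide 2, triangles slide 1, bars mean ± SD, n = 3). Control 3 lies toward the MC-LR arrays for Arntl (8.20) and Ciart (4.79) and below all of them for Ppp1r3c (9.47).

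Among 29 genes of gluconeogenesis and glucose handling, 28 were tested, 17 above 0 and 11 below, with a median of 0.05, and 0 had an adjusted p under 0.05. The 2 at an unadjusted p under 0.05, both lower, were Slc16a1, a lactate and pyruvate carrier, and Slc37a3, a relative of Slc37a4. That threshold was passed on the lower side by 5.03% of all probes tested. Slc16a1 had 10.94, 11.36 and 10.92 in MC-LR livers, against 12.37, 12.33 and 11.28 in control livers, and overlapped because control 3 was low. Its difference was -0.92 ± 0.32 (SE; adjusted p = 0.338, limma), and -0.21 within slide 2. Slc37a3 gave -0.36, and -0.10 within slide 2. Fbp1, which encodes fructose-1,6-bisphosphatase, differed by -0.05 ± 0.09 (SE), and Pcx, which encodes pyruvate carboxylase, by 0.12 ± 0.09 (SE).

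Of 27 regulators of glucose output, 26 were tested, 20 above 0 and 6 below, with a median of 0.22 and 0 at an adjusted p under 0.05. The 4 at an unadjusted p under 0.05 were on the higher side, against 7.89% of all probes tested. They were Foxo3, a forkhead factor held back by insulin signalling (1.07), and Onecut1, a liver transcription factor (0.99). The others were Ppargc1b, a transcriptional coactivator (0.86), and Crtc2, a coactivator of the cAMP response (0.44). Foxo3 was dim, well above background on 1 control array, and gave 0.21 under normexp. Within slide 2 Foxo3 gave 0.75, Onecut1 1.12, Ppargc1b 0.81 and Crtc2 0.09. The glucagon receptor Gcgr differed by 0.01 ± 0.15 (SE), and by 0.25 within slide 2. Ppargc1a, a coactivator of fasting gene expression, differed by 0.53 ± 0.25 (SE) over all arrays and by -0.01 within slide 2.

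Genes that respond to feeding were read in the same livers. Igfbp1, which insulin represses, had 11.53, 12.57 and 10.43 in MC-LR livers, against 13.93, 14.60 and 13.10 in control livers. Of 11 tested genes higher on fasting, 6 lay above 0 and 5 below, with Igfbp1 (-2.37) and Pdk4 (-1.33), which restrains pyruvate oxidation, the 2 at an unadjusted p under 0.05. Within slide 2 Igfbp1 gave -1.59 and Pdk4 -0.71. Of 10 genes higher on feeding, 9 lay above 0 with a median of 0.21, which was -0.11 within slide 2, and Thrsp (3.42, and 2.73 within slide 2) and the pyruvate kinase gene Pklr (0.67, and 0.95 within slide 2) were at an unadjusted p under 0.05. Over all probes tested, 7.89% were higher and 5.03% lower at that unadjusted threshold. Neither list had a member at an adjusted p under 0.05, and both held genes on either side of 0.

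Several clock genes differed by more than any member. Arntl, which encodes BMAL1, had 5.61, 5.84 and 7.64 in MC-LR livers, against 10.39, 9.56 and 8.20 in control livers, with control 3 nearest to the MC-LR livers (difference -3.02, and -1.83 within slide 2). Ciart, a clock repressor, had 8.81, 8.55 and 6.83 in MC-LR livers, against 1.19, 1.25 and 4.79 in control livers. Its probe was well above background on only 1 control array, and its difference of 5.65 was 3.27 within slide 2 and 2.01 under normexp. Over 18 clock genes 14 lay above 0, with a median of 1.09 and 0 at an adjusted p under 0.05. At an unadjusted p under 0.05 there were 11 higher and 2 lower (7.89% and 5.03% of all probes tested). Among the others, Hlf gave 0.99 (1.13 within slide 2) and Cry2 1.21 (0.82 within slide 2). Bhlhe41 gave 1.98 (1.99 within slide 2), but it too was well above background on only 1 control array and gave 0.48 under normexp. The G6pc signal followed the same order of control 3 between the other controls and the MC-LR livers, while that of Gys2 did not. The part of clock phase, feeding state and slide in the members' values was not tested.

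**Figure D4:**
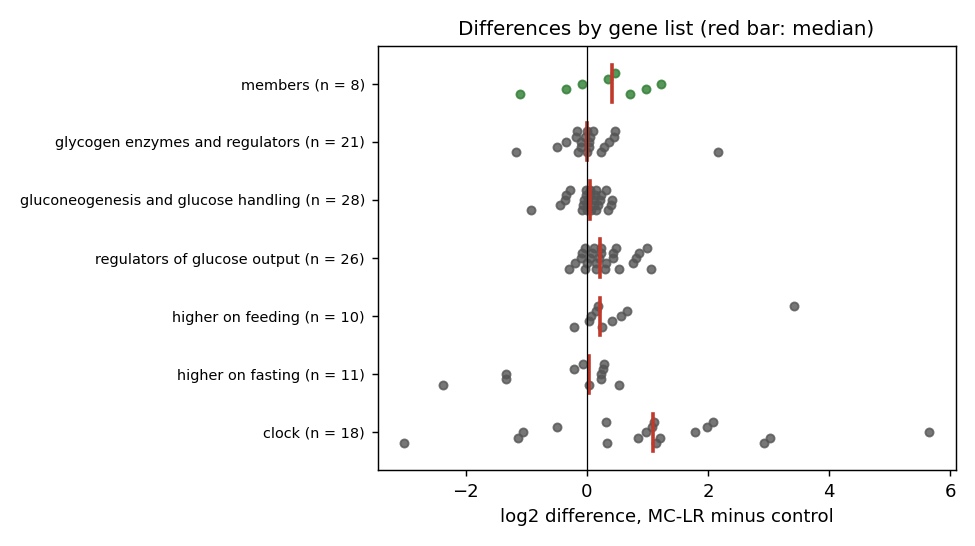
Log2 differences (horizontal axis, MC-LR minus control) of the 8 measured members and of the tested genes of 6 other lists, 1 point a gene, with the median of each list as a red bar. The medians were 0.41 for the members, -0.00310 for other glycogen genes, 0.05 for gluconeogenesis and 1.09 for clock genes.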

How the data were processed

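Single-colour Agilent arrays of 6 mouse livers, 3 MC-LR and 3 control, were grouped by sample title. Spot intensity was deposited as read by Agilent Feature Extraction (version 10.7 in the submitters' processing notes), background-subtracted and detrended within the array, per the file headers. The deposited log2 table was quantile normalized by the authors in GeneSpring, per the series' design text. Its scale is unstated; each column correlated at r of 0.9982 or more with log2 of its own array's signal and had a median of 5.94, so values are log2, not centred by gene, and higher means more signal.

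Members were found by gene name. A probe was tested if well above background on all 3 arrays of a group (28507 of 41174; 11 of 11 member probes). Each probe was its own feature in limma 3.58.1 (R 4.3.3; lmFit, eBayes, two-sided, 4 residual and 2.18 prior degrees of freedom, Benjamini-Hochberg over all probes, threshold 0.05). A gene with several probes is shown by the one with the highest mean. For lists, probes were named through RefSeq accessions on GRCm38.p6 (27745 probes), symbols or synonyms (5998) or kept their file name (7431). All members are named; of other lists, up to 4 genes with the smallest unadjusted p under 0.05 and a few fixed genes, 2 of which are not reported here. Probe coordinates are those of the files, on mm9; no exon annotation of that build was used. Members and lists were chosen with earlier results of these data known. The steps were tested on simulated data. Alternatives were the authors' normalization replaced by own quantile, 75th percentile or normexp (offset 50) processing, other filters, 1 probe per gene, slide or replicate number as a block, slide 2 alone, eBayes with trend, and each array left out.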

Additional observations from a re-analysis of the deposited data

How the results depend on the processing

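Over 17 alternatives, 174 of 184 values of member probes kept their direction and stayed above the adjusted threshold, and 10 changed sign, all of them of Pygl, whose value was near 0. The brighter Pygl probe gave 0.00101 under 75th percentile scaling, 0.0234 with slide as a fixed block and within slide 2, and -0.196 to 0.000828 when an array was left out (above 0 without MC-LR replicate 2). The dimmer one gave 0.43 with slide as a fixed block and within slide 2, 0.12 with slide as a random block, and -0.359 to 0.25 when an array was left out (0.25 without MC-LR replicate 2, 0.03 and 0.07 without control replicate 1 and 2). Gys2 ranged from 1.12 to 1.45 (adjusted p 0.0753 to 0.630), and G6pc from -1.49 to -0.33 (adjusted p 0.0576 to 0.677). The count of probes called over the whole table, 3 in all, was 1 under 75th percentile scaling and under the strict filter, 13 with slide as a fixed block, 0 within slide 2 (3322 at an unadjusted p under 0.05, limma), and 1 to 70 when an array was left out; it was 1 without MC-LR replicate 1 and 70 without control replicate 3, where slide and group coincide. With the replicate block it was 0 (2875 at an unadjusted p under 0.05, limma) and no member's call changed. Deviations of equally numbered arrays correlated at 0.17, -0.30 and -0.18, and those of unequally numbered arrays at -0.20 to 0.35. Deviations centred within groups of 3 are tied together, so these values cannot decide whether the numbers pair livers. The causes were not tested. All 11 member probes were well above background on all arrays; the dimmest, of Pygl, had an SE of 0.36, and 0.22 under normexp.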
